A study of Mus musculus with 9 samples.

Results

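MLL4, encoded by Kmt2d, is the histone methyltransferase that places most of the monomethyl mark on lysine 4 of histone H3 at enhancers, together with its paralog MLL3. It works in a complex of shared and private subunits that also holds UTX, a demethylase of lysine 27 of the same histone, and the marked enhancers recruit the acetyltransferase p300. Enhancers of this kind set the balance in embryonic stem cells between the naive state, held by LIF signalling and factors such as Klf4 and Esrrb, and the formative state that precedes differentiation, marked by Otx2 and the de novo DNA methyltransferases.

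RNA was sequenced from male mouse embryonic stem cells grown on gelatin in medium with serum and LIF, and the comparison described here sets 3 libraries labelled MLL4 knockdown against 3 libraries of UTX wild type cells, 6 of the 9 libraries of the series. The members were chosen by their labels alone. Titles of both groups name JM8A, an embryonic stem cell line; those of the labelled knockdown also carry a further number, which the labels do not explain, and name no agent, dose or day of knockdown. The other 3 libraries are a UTX knockout whose titles name A6; they entered the fit and are used only where a direct comparison is given. No treatment was applied to any culture, and nothing in the labels tells whether replicates were separate cultures. The p-values therefore speak of the spread among these libraries, some or all of which may be technical. A difference of clone or passage between the groups cannot be told apart from the knockdown.

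The 6 libraries held 18570746 to 23515830 counts. Levels are given as CPM, edgeR's counts scaled to a common library size with TMM factors, in the order of replicates 1, 2 and 3. A gene was called when edgeR's quasi-likelihood test, with the replicate number as a block, gave a Benjamini-Hochberg adjusted p under 0.05 over the 14772 tested genes. The first principal component (63.2% of the variance) separated the groups, and the second (19.3%) set wild type replicate 1 at the opposite end from wild type replicate 2. Wild type replicate 2 also stood apart by transcript length: its median deviation from the mean of all 9 libraries was -0.48 log2 units in the decile of longest genes and 0.36 in that of shortest genes, while every other library stayed within 0.11 of 0 in both.

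The gene named in the label did not pass the test. Kmt2d, listed in the table under its older symbol Mll2, held 86.2, 43.5 and 119 CPM in wild type and 71.01, 72 and 73.4 CPM in the labelled knockdown, so all 3 labelled knockdown libraries lay inside the wild type range. The log2 fold change was -0.11 (SE 0.21, adjusted p = 0.719), with a 95% interval from -0.57 to 0.35, so the interval does not reach a fall of 1 log2 unit. Kmt2d encodes a very long transcript, and wild type replicate 2, the library low in long transcripts, held its lowest level. Without that library the fold change was -0.44 (adjusted p = 0.0152), and after removal of each library's length trend it was -0.45 (adjusted p = 0.00287). Without wild type replicate 3, the highest library, it was 0.16 (adjusted p = 0.608), and without labelled knockdown replicate 3 it was 0.10 (adjusted p = 0.781). Against the UTX knockout, at 109.7, 96.9 and 130.1 CPM, Kmt2d was lower in the labelled knockdown by 0.61 log2 units, a difference of -0.61 (SE 0.21, adjusted p = 0.0376). Counts over the whole transcript cannot show whether the protein was reduced. The groups are therefore named by their labels throughout.

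Kmt2a, Kmt2b, Kmt2c, Kdm6a and Ep300 had fold changes above 0, and among them only Kmt2b passed the test. Kmt2b, the paralog listed as Wbp7, differed by 0.43 (SE 0.13, adjusted p = 0.0274) log2 units, and its groups overlapped; the call was lost in 8 of 16 alternative analyses. Kmt2a and Kmt2c, listed as Mll1 and Mll3, gave 0.49 (SE 0.24, adjusted p = 0.144) and 0.60 (SE 0.24, adjusted p = 0.0791); wild type replicate 2 held the lowest value of each, and without it the fold changes were 0.09 and 0.19. Kdm6a, the gene of UTX, gave 0.46 (SE 0.17, adjusted p = 0.0639) and Ep300, the gene of p300, 0.32 (SE 0.19, adjusted p = 0.217). Wild type replicate 2 was the lowest wild type library of both genes as well, and without it Kdm6a gave 0.24 and Ep300 0.02. Of 10 genes of the MLL3/MLL4 complex 4 rose and 1 fell, against 14.6% and 19.5% of all tested genes. The rises were Ncoa6 at 0.61, Rbbp5 at 0.41, Wdr5 at 0.34 and Paxip1 at 0.33. The rises numbered 1 without labelled knockdown replicate 1 or replicate 2. Ash2l, a core subunit of every complex of this family, fell by 0.81 on the log2 scale (SE 0.13, adjusted p = 0.000673), from 598, 503 and 450.1 CPM to 312, 281 and 287 CPM; it lies on chromosome 8, where the median log2 fold change was -0.41. Crebbp, the paralog of p300, rose by 1.08 on the log2 scale (SE 0.22, adjusted p = 0.00343): wild type held 33.97, 14.9 and 41.1 CPM and the labelled knockdown 62.7, 58.2 and 58.4 CPM, without overlap. Without wild type replicate 2, its lowest library, the rise was 0.74 (adjusted p = 0.00191). Cited2, a partner of p300 and CBP, rose by 1.06, and of 15 co-activator genes 5 rose and 0 fell; 3 rose without labelled knockdown replicate 1 or 2. Of 8 other writers of lysine 4 methylation and their subunits 4 rose and 0 fell, but 1 rose without wild type replicate 1, 2 without labelled knockdown replicate 1 and 0 without its replicate 2. Among 8 demethylases Kdm2b rose, by 0.57, and 0 fell; 2 rose without wild type replicate 1 or 3, and 1 fell without its replicate 2. Of 21 Polycomb genes, whose complexes place repressive marks, among them the one that UTX removes, 5 rose and 3 fell, each by under 1 log2 unit; Pcgf2 rose by 0.77 and Aebp2 fell by 0.73, and Ezh2, the methyltransferase, gave 0.07 and was not called. The Polycomb rises numbered 2 without any 1 of the labelled knockdown libraries, and the falls 1 without replicate 3 of either group.

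Across the 14772 tested genes 5037 differed between the groups, 34.1%, of which 2158 (14.6%) were higher and 2879 (19.5%) lower in the labelled knockdown. The counts of every gene list given below are to be read beside these shares. In bulk RNA fewer cells with a transcript and less of it per cell cannot be told apart. Falls were also larger than rises: 1439 genes (9.74%) fell and 421 (2.85%) rose by more than 2-fold, and 481 (3.26%) fell and 74 (0.501%) rose by more than 4-fold. In all 1860 genes (12.6%) changed by more than 2-fold. The balance turned with the level of expression. In the lowest quartile of genes by mean log2 CPM, 1066 fell and 240 rose, while in the highest quartile 449 fell and 680 rose. In 6338 genes (42.9%) the libraries of the groups did not overlap, 3024 of them higher (20.5%) and 3314 lower (22.4%). In 4977 genes (33.7%) the call came with the same direction in all 3 same-numbered pairs. The balance of rises and falls depended on the scaling. After removal of each library's length trend 2785 genes rose and 3117 fell, and with upper quartile factors 1824 rose and 3138 fell. Within lane 2 alone, which held replicates 1 and 3, 1696 genes rose and 2391 fell. Lane 1 held a single library per group. Without labelled knockdown replicate 2 the rises numbered 1110, and without its replicate 3 they numbered 1339; the falls then numbered 1998 and 2052.

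**Figure D1:**
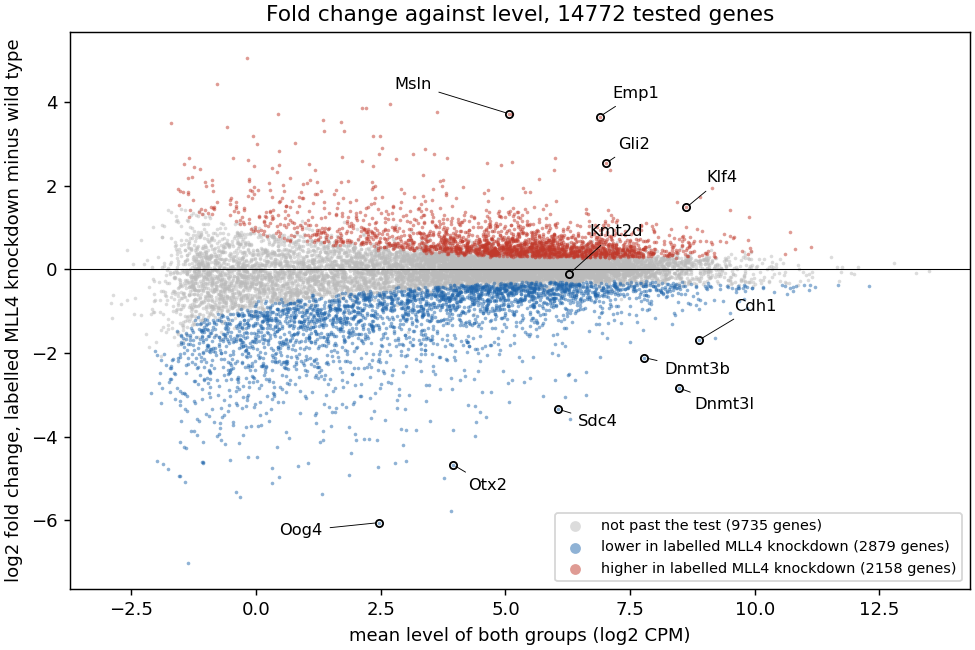
Each point is 1 of 14772 tested genes, with the mean level of both groups in log2 CPM on the x axis and the log2 fold change, labelled MLL4 knockdown minus wild type, on the y axis. The 2879 lower genes reach further from 0 than the 2158 higher genes, above all at low levels, and Kmt2d lies close to 0.

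Among genes at moderate or high level, the rise of smallest p was that of Gli2, a transcription factor that carries out Hedgehog signalling. It held 39.7, 28.1 and 47.9 CPM in wild type and 207, 223 and 230.4 CPM in the labelled knockdown. The lowest labelled knockdown library was thus over 4-fold above the highest wild type library, and the log2 fold change was 2.54 (SE 0.14, adjusted p = 9.62e-07). Pdgfc, a secreted ligand of the PDGF receptors, went from 7.37, 12.2 and 10.7 CPM to 62.6, 62.3 and 55.97 CPM, a rise of 2.58 on the log2 scale (SE 0.17, adjusted p = 2.29e-06). Its receptor gene Pdgfra rose by 2.59, from 1.25 ± 0.244 CPM to 7.48 ± 0.663 CPM (SD, n = 3), whereas Pdgfb, Pdgfd and Pdgfrb fell by 1.35, 2.21 and 1.18. Pdgfd lost its call in 4 of the 15 alternative analyses that held it. Sall3, a zinc finger factor of the spalt family, held 3.06, 3.71 and 4.84 CPM in wild type and 26.1, 23.6 and 23.8 CPM in the labelled knockdown (log2 change 2.67, SE 0.17, adjusted p = 2.36e-06). Its paralog Sall2 fell by 1.30, and Sall4, a factor of the pluripotency network, gave -0.08 (adjusted p = 0.621). Zfp521, another zinc finger factor, rose by 2.55.

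Frmd4b, which encodes a scaffold protein with a FERM domain, held 11.1, 7.71 and 8.69 CPM in wild type and 49.2, 53.1 and 51.1 CPM in the labelled knockdown. Msln, the gene of the surface glycoprotein mesothelin, rose by 3.73 on the log2 scale (SE 0.21, adjusted p = 1.04e-06); its 30.2, 76.2 and 80.9 CPM in the labelled knockdown spread widely, but the lowest was over 4-fold above the highest wild type library, at 7.46 CPM. Ntn1, the guidance cue netrin-1, rose by 2.37, Jam2, a junctional adhesion molecule, by 1.42, Islr2 by 2.78, Lix1l by 1.90 and Rab31, a small GTPase of endosomes, by 1.55. Ranked by the gain in CPM, the leading rises above 2-fold were Spp1 (osteopontin), Scd2 (a stearoyl-CoA desaturase), Tfcp2l1 (listed as Tcfcp2l1), Grb10, Klf4, Tns3, Tsc22d1 and Emp1. Spp1 went from 567 ± 126 CPM to 1320.0 ± 30.8 CPM (SD, n = 3) and Grb10, an imprinted adaptor that restrains insulin receptor signalling, from 222 ± 28.2 CPM to 738 ± 80.9 CPM. Emp1, a membrane protein of epithelia, held 5.87, 26.6 and 27.1 CPM in wild type and 182, 245 and 225 CPM in the labelled knockdown, the largest fold of these 8 at 3.66 (SE 0.29, adjusted p = 7.88e-06); without wild type replicate 1, its lowest library, the rise was 3.27. A single gene was off in every wild type library (under 0.5 CPM) and on in every labelled knockdown library (over 2 CPM), the X-linked testis gene Tex13, at 0.415, 0.341 and 0.403 CPM against 4.09, 4.25 and 5.71 CPM.

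The fall of smallest p was that of Otx2, the homeobox factor that directs naive cells into the formative state. It held 40.8, 23.5 and 24.5 CPM in wild type and 1.72, 0.996 and 0.797 CPM in the labelled knockdown (log2 change -4.67, SE 0.17, adjusted p = 8.03e-08). Sdc4, the heparan sulfate proteoglycan syndecan-4, fell from 107, 137 and 119 CPM to 9.68, 14.7 and 11.7 CPM and Liph, a phospholipase that makes lysophosphatidic acid, from 29.5, 28.5 and 27.99 CPM to 2.04, 2.17 and 1.77 CPM. In all 3 genes the groups were far apart compared with the spread inside either group. Inpp5d, the lipid phosphatase SHIP1, fell by 2.69 on the log2 scale (SE 0.14, adjusted p = 7.20e-07), from 61.1, 70.4 and 83.8 CPM to 11.4, 10.8 and 11.2 CPM. Glipr2 fell by 3.01, Arl4c, a small GTPase of the ARF family, by 3.41, Pla2g1b, a secreted phospholipase A2, by 3.54 and Anxa2, a membrane-binding annexin, by 2.66. Rhpn2, a scaffold protein, fell by 2.56; its span overlaps Faap24 in RefSeq. Aire fell by 2.65, and its span overlaps that of Dnmt3l, which also fell. Without a stated strand setting, reads of overlapping genes may be shared or set aside, so the values of both genes of such a pair are uncertain. Aire was the less abundant of its pair, from 60.3 ± 8.32 CPM to 9.62 ± 1.32 CPM (SD, n = 3).

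Promoters of genes with large changes were more often poor in CpG than those of all tested genes. CpG is the dinucleotide that carries DNA methylation. RefSeq promoters (GRCm38.p6), 250 bases before to 50 after the start, were found for 11155 of the 14772 tested genes. Of these 13.7% held under 8 CpG in 300 bases, against 35.7% of the 1043 promoters of genes that fell and 27.3% of the 286 of genes that rose by more than 2-fold. Over all called genes, whatever their fold, the share was 23.4% for falls and 11.9% for rises, the latter below that of all tested genes. Genes at low level have more such promoters, so shares were also taken within quartiles of the level. In the lowest quartile, which held 631 of the large falls, they were 32.7% of all genes, 41.5% of these falls and 39.4% of 109 rises. In the second quartile they were 14.6% of all genes, 28.3% of 290 falls and 24.4% of 90 rises, and in the third 6.11%, 23.4% of 77 falls and 14.5% of 55 rises. In the highest quartile they were 5.68% of all genes, 22.2% of 45 falls and 15.6% of 32 rises, so the gap was smaller in proportion at low level, where most of the large falls lay. Of 8 motifs searched on both strands, TATAAA (the TATA box) stood in 6.96% of all promoters, 11.9% of the falls over 2-fold and 13.6% of the rises. TGANTCA, the motif of AP-1 factors, was held by 4.69% of all promoters, by 7.29% of these falls and by 6.99% of the rises. The STAT motif TTCNNNGAA was found in 6.59% of all promoters, 6.14% of these falls and 10.1% of the rises, and the TEAD motif CATTCC in 12%, 15.4% and 15.4%. The E-box CACGTG stood at 10.2%, 6.62% and 8.39% in the same order, and the CCAAT box (CCAAT) at 39.1%, 34.4% and 32.2%. The octamer ATTTGCAT, a motif of OCT factors, was rare, at 1.37%, 1.63% and 0.35%. GGGCGG, the motif of Sp and KLF factors, which itself holds a CpG, was found in 65% of all promoters, 58% of these falls and 55.6% of the rises. A match is a description of letters, not of a bound site.

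**Figure D2:**
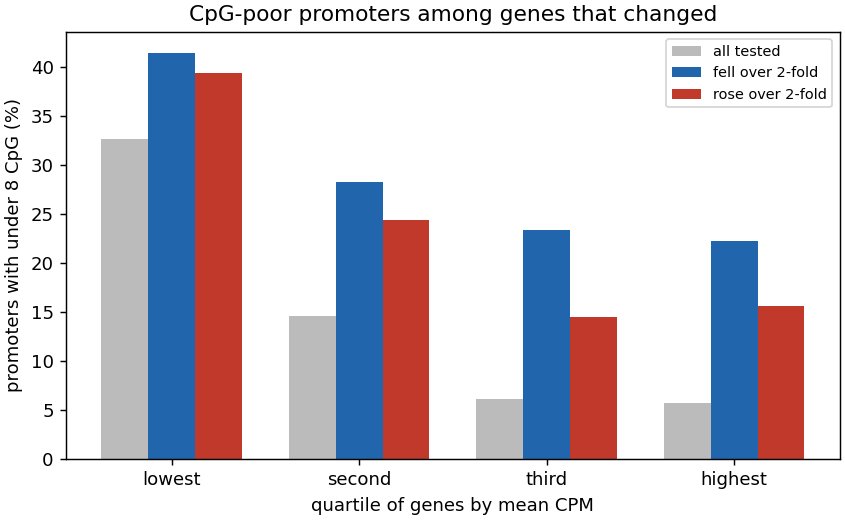
Share of promoters with under 8 CpG in 300 bases, in quartiles of genes by mean CPM, for all tested genes and for those that fell or rose by more than 2-fold. In the lowest quartile the share was 32.7% of all genes, 41.5% of falls and 39.4% of rises, and in the highest 5.68%, 22.2% and 15.6%.

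The 250 bases before the start are printed for 3 falls and 1 rise, picked after their values were seen to show the range of CpG content, with each CpG in capitals. Pla2g1b (fell by 3.54) and Krt8 (fell by 3.05) have 2 and 6 CpG in the 300 bases, and Arl4c (fell by 3.41) and Gli2 (rose by 2.54) have 44 and 28.
Pla2g1b promoter, chr5:115465892-115466141, plus strand: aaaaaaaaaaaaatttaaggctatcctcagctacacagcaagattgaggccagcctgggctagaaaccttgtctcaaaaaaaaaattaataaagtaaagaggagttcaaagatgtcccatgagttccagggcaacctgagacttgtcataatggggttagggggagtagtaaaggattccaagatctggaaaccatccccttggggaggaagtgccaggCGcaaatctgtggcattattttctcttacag
Krt8 promoter, chr15:102004343-102004592, minus strand: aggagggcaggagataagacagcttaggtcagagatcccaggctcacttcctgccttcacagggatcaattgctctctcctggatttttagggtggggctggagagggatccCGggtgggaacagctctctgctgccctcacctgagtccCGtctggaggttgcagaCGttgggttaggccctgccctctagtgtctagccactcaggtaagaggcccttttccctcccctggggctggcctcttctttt
Arl4c promoter, chr1:88702192-88702441, minus strand: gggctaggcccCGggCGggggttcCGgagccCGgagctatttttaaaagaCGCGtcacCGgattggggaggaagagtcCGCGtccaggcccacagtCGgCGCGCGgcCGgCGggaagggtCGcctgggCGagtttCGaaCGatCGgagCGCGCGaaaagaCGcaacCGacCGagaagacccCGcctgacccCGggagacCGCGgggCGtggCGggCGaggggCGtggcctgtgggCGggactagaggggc
Gli2 promoter, chr1:119053620-119053869, minus strand: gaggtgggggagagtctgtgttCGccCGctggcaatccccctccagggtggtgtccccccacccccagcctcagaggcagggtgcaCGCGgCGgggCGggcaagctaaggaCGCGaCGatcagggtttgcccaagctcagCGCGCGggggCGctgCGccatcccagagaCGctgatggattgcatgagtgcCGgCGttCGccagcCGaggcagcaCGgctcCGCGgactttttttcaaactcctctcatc
That both kinds of promoter appear here follows from the choice, and only the shares given above describe the genes as a whole.

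Ranked by the loss of CPM, the leading falls above 2-fold were Tfrc, Dnmt3l, Dppa5a, Cdh1, Dnmt3b, Atxn10, Mt2 and Peg10. Tfrc, the transferrin receptor that takes up iron, fell from 1056, 774 and 841 CPM to 362, 281 and 228 CPM, a change of -1.63 (SE 0.18, adjusted p = 7.73e-05). Mt2, a metallothionein, held 241, 673 and 495 CPM in wild type and 200.02, 221 and 209 CPM in the labelled knockdown. It lies on chromosome 8, where the median log2 fold change was -0.41. Wild type replicate 1, at the low end, was close to the labelled knockdown, and the fold change of Mt2 was -1.08 with that library and -1.41 without it. Peg10, an imprinted gene, fell by 1.03 on the log2 scale (SE 0.24, adjusted p = 0.00662) and lost its call without labelled knockdown replicate 3. In 15 genes every wild type library was over 2 CPM and every labelled knockdown library under 0.5 CPM. Among the 8 of largest fold were Oog4, an oocyte gene, at 10.9, 11.3 and 10.6 against 0.161, 0.136 and 0.177 CPM, Mogat2, an acyltransferase of lipid synthesis, at 4.83, 5.92 and 3.81 against 0.108, 0.0905 and 0.133 CPM, and the dynein gene Dnahc12 at 8.47, 11.04 and 12.1 against 0.484, 0.272 and 0.443 CPM. The other 5 were Trim67, Pla1a, Phldb3, Sept4 and Tspan1, with log2 fold changes of -4.92 to -4.08.

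The regulators of DNA methylation did not move one way. The 3 genes of the de novo machinery fell. Dnmt3l, the cofactor without catalytic activity, whose value is uncertain by its overlap with Aire, held 554, 769.7 and 562 CPM in wild type and 115, 77.7 and 70.9 CPM in the labelled knockdown and fell by 2.84 on the log2 scale (SE 0.19, adjusted p = 2.71e-06). Dnmt3b fell by 2.11 on the log2 scale (SE 0.13, adjusted p = 1.63e-06), from 523, 254 and 301 CPM to 104, 72.9 and 66.5 CPM, and Dnmt3a by 1.09 on the log2 scale (SE 0.10, adjusted p = 1.69e-05), from 332, 229.8 and 239.9 CPM to 147, 113 and 114 CPM. None of the 3 genes overlapped between groups. Dnmt1, which copies methylation at replication, gave 0.16 (SE 0.11, adjusted p = 0.306). Of the demethylating dioxygenases, Tet1 rose by 0.70 and Tet3 by 0.95, while Tet2 gave 0.51 and was not called. Without wild type replicate 2, the library low in long transcripts, Tet1, Tet3 and Tet2 gave 0.36, 0.77 and 0.23. The call of Tet1 was lost in 4 of 16 alternative analyses. The rises of the list numbered 1 rather than 2 without labelled knockdown replicate 1 or replicate 2.

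The identity of the cells was checked on genes that define embryonic stem cells. Pou5f1, which encodes OCT4, held 673, 1187 and 828 CPM in wild type and 900.0, 1178 and 1096 CPM in the labelled knockdown (log2 change 0.26, SE 0.13, adjusted p = 0.138). Sox2, its partner, held 327, 408 and 486 CPM in wild type and 389.7, 429 and 483 CPM in the labelled knockdown (log2 change 0.10, SE 0.11, adjusted p = 0.489). Both were abundant in all 6 libraries and their groups overlapped. Nanog rose by 0.66 on the log2 scale (SE 0.10, adjusted p = 0.000799) without overlap. Zfp42, which lies on chromosome 8, fell by 0.75 on the log2 scale (SE 0.12, adjusted p = 0.000661), and Dppa5a fell by 1.04 on the log2 scale (SE 0.15, adjusted p = 0.000374). Of 16 genes of the core network 5 rose and 3 fell, with a median of 0.16, beside -0.01 over all tested genes. The rises numbered 1 without labelled knockdown replicate 2 and 3 without its replicate 3. Lin28a, an RNA-binding inhibitor of let-7, fell by 0.59 and Dppa2 by 0.77, and Tdgf1, the Nodal co-receptor, rose by 0.50.

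Genes of the naive state split, with more rises. Of 22 tested, 12 rose and 7 fell, with a median log2 fold change of 0.76; the rises numbered 11 to 12 when each library was left out in turn. Klf4 held 162, 207 and 263 CPM in wild type and 517, 592 and 637 CPM in the labelled knockdown, and Tfcp2l1 held 162, 206 and 352 CPM in wild type and 853, 986 and 833 CPM in the labelled knockdown; both rose without overlap, by 1.49 and 1.94. Prdm14 rose by 1.47, Nr0b1 by 1.36, Gbx2 by 1.23, Klf5 by 1.07, Tbx3 by 0.98, Nr5a2 by 0.95 and Esrrb by 0.78. The falls included Dppa3, a maternal-effect factor of the early embryo, at 38.2, 39.7 and 25.04 CPM against 3.77, 3.62 and 3.32 CPM, a loss of 3.24 on the log2 scale (SE 0.17, adjusted p = 7.89e-07). Pecam1, a surface adhesion molecule, fell by 1.79 and Fbxo15 by 1.20. Klf2 gave -0.58 and was not called (adjusted p = 0.0617).

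Of 14 genes of the LIF pathway 7 rose and 2 fell. Lifr, the LIF receptor, went from 76.2, 64.8 and 95.9 CPM to 154, 190.0 and 186 CPM and Il6st, its partner gp130, from 84.3, 63.1 and 103 CPM to 157, 171 and 159.9 CPM, rises of 1.16 and 0.98. Stat3 rose by 0.50 and the feedback targets Socs3 and Socs2 by 0.77 and 0.38; the other rises were Bcl3 at 0.70 and Pim3 at 0.56. Ier3, an early response gene, fell by 1.80 and Cebpd, a target of STAT3, by 1.34. Cebpd lost its call in 5 of the 15 alternative analyses that held it. Only 1 gene of this list fell without labelled knockdown replicate 1 or replicate 3 of either group.

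Formative and primed genes likewise moved both ways, 6 up and 8 down of 18. Besides Otx2, the falls were led by Fgf5, a growth factor of the epiblast, at 4.62, 0.980 and 1.61 CPM against 0.215, 0.0453 and 0 CPM, and by Car14 at -2.57. Grhl2, a factor of epithelial and formative enhancers, fell by 1.58 on the log2 scale (SE 0.19, adjusted p = 0.000149) and Pou3f1 by 0.90. The rises were led by Fst, which encodes the activin antagonist follistatin, at 1.56, 1.58 and 1.52 CPM against 6.72, 9.32 and 9.92 CPM, followed by Foxd3 at 1.38, Cdh2 (N-cadherin) at 1.15 and Tcf15 at 1.08.

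**Figure D3:**
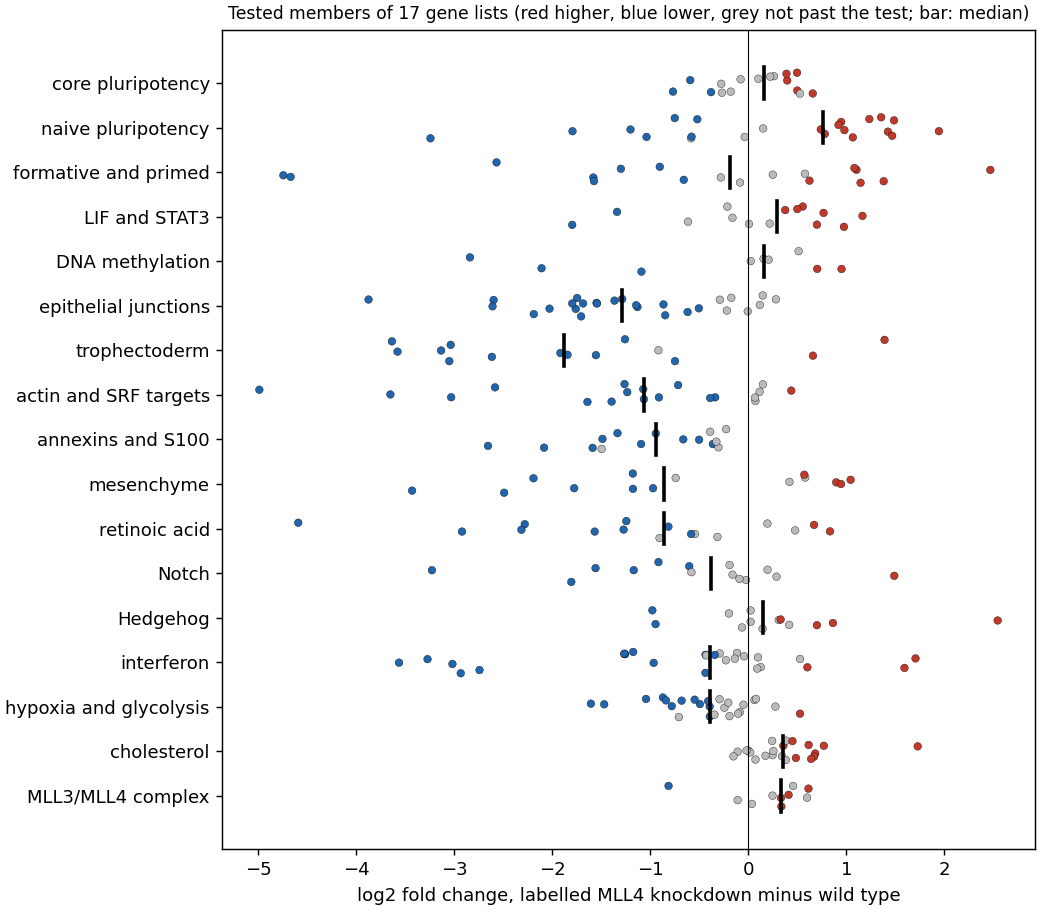
Each point is a tested member of 1 of 17 gene lists, placed by its log2 fold change, labelled MLL4 knockdown minus wild type, with the list's median as a bar. Epithelial junctions (median -1.29) and trophectoderm (-1.88) lie mostly below 0, naive pluripotency genes (0.76) mostly above.

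Of 27 tested genes of cell junctions and epithelial identity, 20 fell and 0 rose, with a median of -1.29. The falls numbered 17 to 21 when each library was left out in turn. This list, like all lists here, was chosen with earlier results of these data known, so such counts are descriptions and carry no test. Cdh1, which encodes E-cadherin, held 783, 603 and 780.1 CPM in wild type and 247, 213 and 211 CPM in the labelled knockdown and fell by 1.69 on the log2 scale (SE 0.15, adjusted p = 1.65e-05). Cdh3, P-cadherin, fell by 2.64 on the log2 scale (SE 0.14, adjusted p = 7.20e-07), from 136, 88.3 and 105 CPM to 19.3, 16.8 and 16.1 CPM. Both lie on chromosome 8, whose median fall was -0.41, smaller than either. Cldn6, the claudin typical of pluripotent cells, held 73.5, 81.8 and 76.5 CPM in wild type and 13.2, 12.2 and 12.9 CPM in the labelled knockdown, with very little spread in either group. Cldn4 and Cldn7 fell by 1.76 and 1.71, Dsp (desmoplakin) by 2.61 and Rab25, a GTPase of epithelial recycling endosomes, by 3.87. Esrp1, the splicing regulator of epithelial isoforms, fell by 2.19 on the log2 scale (SE 0.14, adjusted p = 2.61e-06). The 7 genes not called included Ocln (occludin of the tight junction) at -0.17 and Marveld2 at 0.28.

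Mesenchymal genes moved both ways. Of 14 tested, 4 rose and 7 fell, with a median of -0.86. The rises were Fn1 (fibronectin) at 0.90, Vim (vimentin) at 0.57 and the repressors of E-cadherin Zeb1 and Zeb2 at 1.04 and 0.95. Zeb1 held 16.7, 14.8 and 19.5 CPM in wild type and 34.5, 34.3 and 35.96 CPM in the labelled knockdown. The falls were the fibrillar and microfibrillar collagens Col1a1, Col1a2, Col5a1, Col6a1 and Col6a2, Pdgfrb and Thy1. The calls of Col5a1 and Col6a2 were lost in 5 and 3 of 16 alternative analyses. Of the markers of feeder fibroblasts, Lum had 0 counts in all 6 libraries and Dcn at most 3, but the 7 falls named above were expressed and higher in wild type. The summed level of the 20 genes was 1394, 990.2 and 1621 CPM in wild type and 2038, 2509.9 and 2547 CPM in the labelled knockdown, most of it Fn1 and Vim, and the part of any fibroblasts in these differences was not tested. Snai1 gave -0.74 and was not called.

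Keratins and other genes of trophectoderm, the outer layer of the blastocyst, fell in the labelled knockdown but varied widely between the wild type libraries. Of 14 tested, 11 fell and 2 rose, with a median of -1.88. Krt8, a keratin of simple epithelia, held 19.7, 211 and 170.3 CPM in wild type and 13.4, 12.6 and 12 CPM in the labelled knockdown. Its partner Krt18 held 28.7, 231 and 184 CPM in wild type and 10.3, 9.23 and 9.92 CPM in the labelled knockdown. Hand1, a factor of trophoblast giant cells, held 0.727, 9.21 and 13.1 CPM in wild type and 0.807, 0.724 and 0.797 CPM in the labelled knockdown. At all 3 genes wild type replicate 1 lay near the labelled knockdown and replicates 2 and 3 lay far above it, and at Hand1 the groups overlapped. The fold changes of Krt8, Krt18 and Hand1 were -3.05, -3.58 and -3.04 with all libraries and -3.81, -4.23 and -3.64 without wild type replicate 1. The summed level of all 16 genes was 191, 728 and 652 CPM in wild type and 129, 151 and 161 CPM in the labelled knockdown. The part of such cells in the other differences was not tested. Without wild type replicate 1, 12 members fell, and without replicate 2 or 3, 11 and 10. The defining factors Cdx2 and Elf5 were near absent: Cdx2 held at most 1.34 CPM in any of the 6 libraries and Elf5 at most 5 counts. Esx1, a placental homeobox gene, fell by 3.13 on the log2 scale (SE 0.25, adjusted p = 7.57e-06) without overlap. Gata2 rose by 1.39 and Tead4 by 0.66; the rises numbered 1 without labelled knockdown replicate 1 or 2 or wild type replicate 1 or 2.

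**Figure D4:**
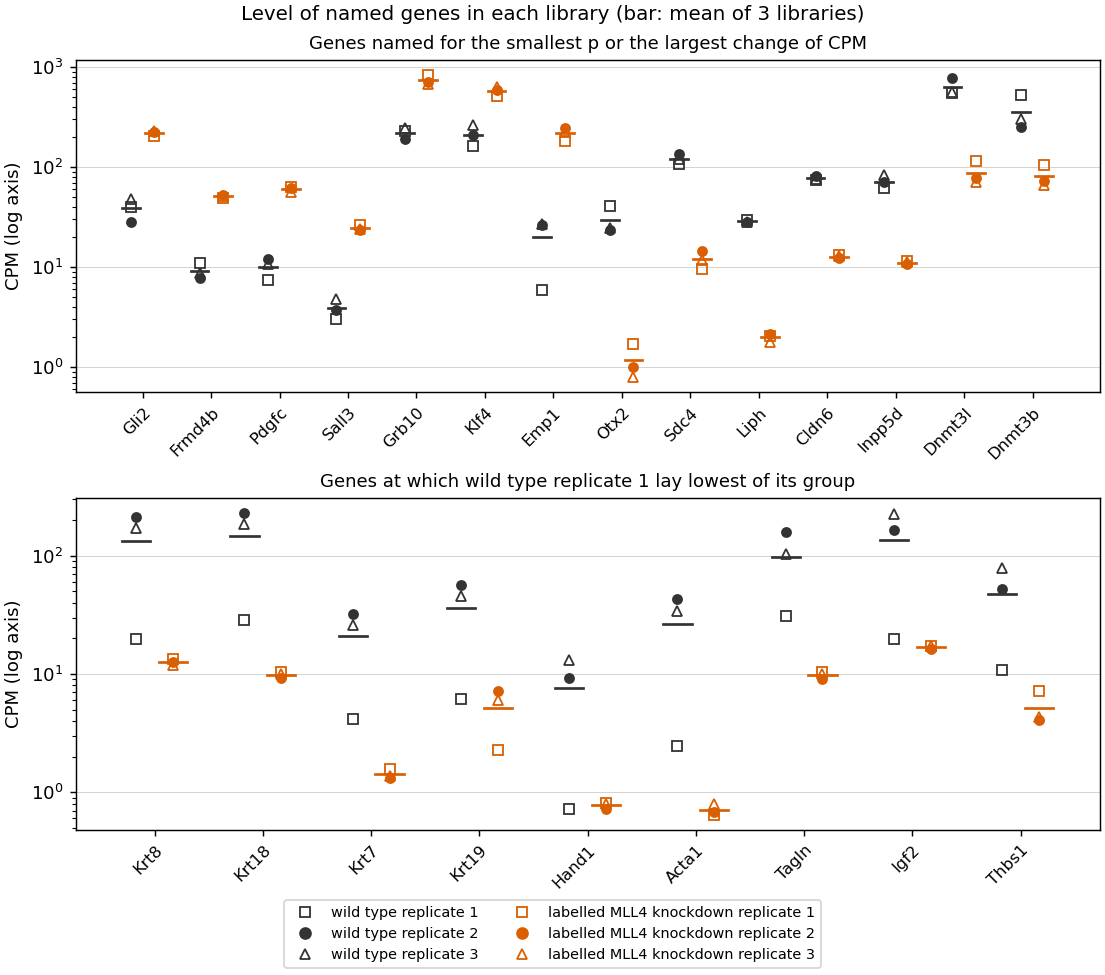
CPM on a log axis in each of the 6 libraries, black for wild type and orange for the labelled MLL4 knockdown, with squares, circles and triangles for replicates 1, 2 and 3 and a bar for the mean. The upper panel holds genes named for a small p or a large change of CPM. Its groups are separate at every gene, which the rule for small p required, so this follows in part from the choice. Of all tested genes 42.9% were separate. The lower panel holds genes picked because wild type replicate 1 lay lowest of its group, for Krt8 at 19.7 against 211 and 170.3 CPM.

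Some genes of the actin cytoskeleton were also lowest in wild type replicate 1 among its group. Of 19 tested targets of SRF and actin-binding genes, 14 fell and 1 rose, with a median of -1.07, and 11 to 14 fell when each library was left out. Acta1, a muscle actin on chromosome 8, held 2.44, 42.8 and 34.4 CPM in wild type and 0.646, 0.679 and 0.797 CPM in the labelled knockdown. Tagln, which binds actin filaments, held 31.2, 158 and 103 CPM in wild type and 10.4, 9.05 and 9.92 CPM in the labelled knockdown. Without wild type replicate 1 the fold changes of Acta1 and Tagln went from -4.99 and -3.03 to -5.57 and -3.45. The summed level of the list spread less, at 3322, 3898 and 4248 CPM in wild type, against 3616, 3452 and 3369.9 CPM in the labelled knockdown. Gsn, the actin-severing gelsolin, fell by 3.65 on the log2 scale (SE 0.28, adjusted p = 7.26e-06) and Tpm1 (tropomyosin) by 1.26. Cnn1, a calponin whose wild type libraries lay close together, went from 8.15, 8.95 and 7.70 CPM to 1.94, 1.22 and 1.06 CPM. Flna, filamin A, was the rise, at 0.44; the call was lost in 6 of 16 alternative analyses. Of 15 annexin and S100 genes 10 fell and 0 rose, among them Anxa2, Anxa5 at -1.33 and Anxa7 at -0.94.

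Of 15 tested targets of the YAP and TEAD pathway 7 fell and 0 rose. Cyr61, a secreted matrix protein, held 109, 113 and 117 CPM in wild type and 57.1, 53.6 and 55.1 CPM in the labelled knockdown, whereas Ctgf, a target of the same factors, held 49.4, 54.5 and 45.5 CPM in wild type and 49.7, 44.8 and 47.3 CPM in the labelled knockdown and was not called. Axl fell by 3.31 and Thbs1 by 2.92, both lowest in wild type replicate 1 among its group, and without it the fold changes were -3.77 and -3.79. Of 13 integrin genes 6 fell and 0 rose, led by Itga1 at -2.06 and Itga7 at -1.96. Basement membrane and matrix genes split, with 10 rises and 7 falls of 24: Nid1 rose by 0.96, Lama1 by 0.82 and Lamc1 by 0.76, and Sparc fell by 1.16. Those rises numbered 6 without labelled knockdown replicate 2, and the falls 4 without its replicate 3 or wild type replicate 3.

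In Hedgehog signalling the transducer Smo rose by 0.86 on the log2 scale (SE 0.14, adjusted p = 0.00081) and the factors Gli1 and Gli2 by 0.70 and 2.54, the co-receptors Cdon and Boc fell by 0.98 and 0.95, and Ptch1, the receptor and target of the pathway, gave 0.31 and was not called. Of 13 members 4 rose and 2 fell; the falls numbered 1 without labelled knockdown replicate 3. Of 14 Notch genes 6 fell and 1 rose. The glycosyltransferase gene Lfng went from 7.58, 6.69 and 6.49 CPM to 1.56, 0.181 and 0.664 CPM, the ligand gene Dll1 fell by 1.81 on the log2 scale (SE 0.31, adjusted p = 0.00129), and the targets Hey1 and Nrarp fell by 1.56 and 0.92. Hes1, also a Notch target, was the rise, from 20.5, 27.4 and 26.2 CPM to 49.1, 77.1 and 85.7 CPM.

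Of 16 retinoic acid genes 9 fell and 2 rose; the rises numbered 1 without labelled knockdown replicate 2 or wild type replicate 2 or 3. Crabp2, which carries retinoic acid to the nucleus, held 24.2, 12.7 and 9.45 CPM in wild type and 0.968, 0.317 and 0.576 CPM in the labelled knockdown, a fall of 4.59 on the log2 scale (SE 0.34, adjusted p = 5.86e-06). Stra8 fell by 2.92, Cyp26a1, which degrades retinoic acid, by 2.28 and the receptor gene Rarg by 0.81, whereas the receptor gene Rara rose by 0.67. In the Nodal pathway 7 of 17 genes rose and 3 fell: the inhibitor genes Smad7 and Pmepa1 rose by 1.08 and 1.14. Each fall of the list was larger than any of its rises. The ligand gene Tgfb1, among the falls, gave -1.54; it was lowest in wild type replicate 1 among its group, and without that library the value was -1.82. Nodal itself held 62.3, 58.7 and 50.2 CPM in wild type and 74.99, 71.2 and 66.4 CPM in the labelled knockdown and was not called (adjusted p = 0.0831). The Nodal pathway rises numbered 3 without labelled knockdown replicate 2.

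For Wnt genes 5 of 19 rose and 4 fell, 26.3% and 21.1%, beside 14.6% and 19.5% of all tested genes. The secreted inhibitor Notum went from 4.15, 5.88 and 4.34 CPM to 24.5, 18.8 and 20.1 CPM and the target Sp5 from 0.364, 0.810 and 1.21 to 2.64, 3.85 and 3.85 CPM; Rnf43, a target that removes Wnt receptors, fell by 1.80, and Axin2, the usual reporter gene of the pathway, gave -0.54 and was not called. Falls numbered 7 without wild type replicate 1. Of 21 genes of the FGF and ERK pathway 4 rose and 7 fell. The ligand gene Fgf17 rose by 1.27 on the log2 scale (SE 0.14, adjusted p = 8.02e-05) and the ligand gene Fgf5 fell, as given above, while Fgf4, the main FGF of these cells, gave 0.15 and was not called. The receptor genes Fgfr1, Fgfr2, Fgfr3 and Fgfr4 fell by 0.63, 1.64, 0.56 and 0.90. Fgfr1 lies on chromosome 8, where the median log2 fold change was -0.41, and Fgfr3 lost its call in 6 of 16 alternative analyses. In this list the rises numbered 2 without labelled knockdown replicate 1 or 2 or wild type replicate 1, and the falls 4 without labelled knockdown replicate 3.

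Of 26 interferon-responsive genes 13 fell and 3 rose, with a median of -0.39. Oas3, a sensor of double-stranded RNA, held 10.4, 7.84 and 9.05 CPM in wild type and 1.08, 0.679 and 0.576 CPM in the labelled knockdown. Oas2, of the same family, held 3.06, 3.07 and 2.87 CPM in wild type and 0.430, 0.453 and 0.443 CPM in the labelled knockdown. Neither gene overlapped between the groups. Oas1a and Oasl2 fell by 3.27 and 3.02, and Ddx58, the sensor RIG-I, and Bst2, on chromosome 8, each by 1.26. Rsad2 and Xaf1 rose by 1.71 and 1.59. Of 10 genes of antigen presentation 4 fell and 1 rose; the 4 were the peptide transporter genes Tap1 and Tap2, Tapbp and Psmb9, and 2 fell without labelled knockdown replicate 1 or without wild type replicate 1. The rises of this list numbered 0 without labelled knockdown replicate 2 or 3 or wild type replicate 3, and 2 without wild type replicate 1.

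Of 25 glycolysis and hypoxia genes 12 fell and 1 rose. Pgk1 fell by 0.84 on the log2 scale (SE 0.16, adjusted p = 0.00246), Eno2 by 1.61, Aldoa by 0.49 and Bnip3, a mitophagy receptor, by 0.87, and the glucose transporter Slc2a3 rose by 0.53. These falls numbered 7 without labelled knockdown replicate 1, and the rise was lost there too. Of 22 cholesterol genes 9 rose and 0 fell; Insig1, a sterol sensor of the endoplasmic reticulum, rose by 0.67. Among 30 imprinted genes 9 fell and 4 rose. H19, a noncoding RNA, went from 11.9, 39.2 and 37.1 CPM to 0.484, 0.543 and 0.487 CPM, its neighbour Igf2 from 19.9, 164 and 224 to 17.2, 16.3 and 17.1 CPM, and Plagl1 rose from 7.01, 4.43 and 7.03 to 26.3, 17.97 and 20.7 CPM. Wild type replicate 1 was the lowest of its group for H19 and Igf2; their fold changes were -5.79 and -2.52 with it and -6.14 and -3.24 without it.

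Of 11 genes of the 2-cell-like state 10 fell and 0 rose, with a median of -1.55, and without the replicate block 3 fell, with a median of -1.53. Zscan4c held 8.57, 3.79 and 3.76 CPM in wild type and 4.14, 0.724 and 1.77 CPM in the labelled knockdown: replicate 1 was the highest library of each group and the groups overlapped. Most of these genes belong to families of near-identical copies, so the counts of single members are uncertain. Of the other cell types a culture can hold, mesendoderm had 1 fall among 8 tested genes, that of Wnt3 at -3.65, with Cer1 at 0 counts in all 6 libraries. Neural genes had 2 rises and 2 falls of 12, 16.7% each, near the 14.6% and 19.5% of all tested genes. Nes, the intermediate filament nestin, fell from 80.9, 50.5 and 50.1 CPM to 8.28, 5.48 and 6.16 CPM, while Neurog2, a proneural factor, had 0 counts in all 6 libraries. Primitive endoderm genes rose in 5 and fell in 3 of 14 cases, with Gata6 at 0.935, 0.895 and 0.985 CPM against 2.85, 2.62 and 2.66 CPM and Ttr at 0 counts in all 6 libraries. Hnf4a fell by 4.60; the rises of the list numbered 3 without labelled knockdown replicate 2. Of 5 blood and endothelial genes 2 rose, Tal1 and Tek, and 1 fell, Gata1, with the haemoglobin genes Hba-x and Hbb-b1 at 0 counts. Wnt3, Hnf4a and Gata1 were low and did not pass a stricter filter, at least 1 CPM in every library of at least 1 group. That filter left 3 mesendoderm genes, with 1 rise and 0 falls. It left 11 primitive endoderm genes, with 5 rises and 2 falls, and 4 blood and endothelial genes, with 2 rises and 0 falls. Summed levels ran from 16.5 to 23.02 CPM in wild type and 18.02 to 23.7 CPM in the labelled knockdown for mesendoderm, 438 to 472 and 340.4 to 479 CPM for neural, 453 to 849 and 410.0 to 568 CPM for primitive endoderm, and 21.9 to 34.02 and 41.3 to 45.5 CPM for blood and endothelial genes. The genes named at 0 counts are single members of their lists, and other members were expressed. The part of such cells in the results was not tested.

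The counts that follow are to be set beside the 14.6% of all tested genes that rose and the 19.5% that fell. Of 30 cell cycle genes 9 rose and 4 fell. Cdkn1b, which encodes the inhibitor p27, rose from 34.8, 41.5 and 45.6 CPM to 63.5, 99.02 and 99.2 CPM, and the inhibitor genes Cdkn2a and Cdkn2b, on chromosome 4, fell by 0.95 and 1.52. Cdkn1a, the p53 target p21, fell by 1.00 on the log2 scale (SE 0.13, adjusted p = 0.000227), one of 5 falls and 5 rises among 19 p53 targets. The cell cycle rises numbered 4 without labelled knockdown replicate 2 and 3 without its replicate 3, and the p53 falls 2 without its replicate 1 or 2 and 3 without replicate 3 of either group.

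Of 21 genes of the unfolded protein and amino acid responses 7 fell and 1 rose. Ddit3, the stress factor CHOP, fell from 19.6, 41.1 and 27.4 CPM to 6.35, 9.01 and 11.1 CPM without overlap. The falls numbered 3 without labelled knockdown replicate 2 and 4 without replicate 3 of either group. Of 21 NRF2 and glutathione genes 9 fell and 6 rose: Gstm2, a glutathione transferase, fell by 1.56 on the log2 scale (SE 0.14, adjusted p = 1.85e-05), and Srxn1, sulfiredoxin, rose by 0.75. Falls of this list numbered 4 without labelled knockdown replicate 2, and rises 3 without its replicate 1. Of 15 immediate early genes 5 fell and 0 rose, with Fos at 0.25 and not called, while 3 fell without labelled knockdown replicate 3, 1 rose without its replicate 1 and 2 rose without wild type replicate 1. Of 26 lysosome genes 5 fell and 3 rose, shares of 19.2% and 11.5% that were not above those of all tested genes; among them were Cd63 at -1.04 and Ctsf at 1.13; the falls numbered 2 without labelled knockdown replicate 2 or 3 or wild type replicate 1, 3 without labelled knockdown replicate 1, and the rises 1 without labelled knockdown replicate 1 or 3 or wild type replicate 3. Of 21 germline genes 5 rose and 4 fell: Dazl and Ddx4 rose by 0.84 and 0.72, and Dpep3, on chromosome 8, and Mael fell by 2.59 and 1.02. These counts are 23.8% and 19% of the germline list. The falls numbered 2 without labelled knockdown replicate 1. Of 15 BMP genes 4 rose and 3 fell: the signal carrier Smad5 rose by 0.55, the inhibitor Smad6 fell by 1.09, and Bmp4, the main BMP of these cells, gave -1.06 and was not called. The BMP rises numbered 2 without labelled knockdown replicate 1 or 3, and the falls 1 without replicate 3 of either group and 6 without wild type replicate 1.

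Falls were unevenly spread over the chromosomes. On chromosome 8, 357 of 769 tested genes fell (46.4%) and 21 rose (2.73%), with a median log2 fold change of -0.41. On chromosome 4, 319 of 967 fell (33.0%), with a median of -0.20. The median of chromosome 8 lay between -0.45 and -0.39 in all alternative analyses that held it. All 4 tested genes of the Y chromosome fell, among them Uty, the Y-linked paralog of UTX, at 16.8, 9.67 and 15.7 CPM against 1.13, 0.724 and 1.11 CPM, and Ddx3y at 26.1, 13.6 and 17.5 against 2.47, 2.22 and 1.59 CPM. The UTX knockout was shifted from the same wild type libraries by medians of -0.44, -0.15 and -3.93 on chromosomes 8, 4 and Y, and between both perturbed groups these medians were 0.02, -0.04 and 0.04. Each wild type library lay 0.27 to 0.32 log2 units above the mean of all 9 for chromosome 8, and each labelled knockdown library 0.11 to 0.13 below. Chromosome copy number was not measured, and RNA counts alone do not give it. With chromosomes 4, 8 and Y left out of the fit, 1735 of 13032 genes rose and 2339 fell.

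**Figure D5:**
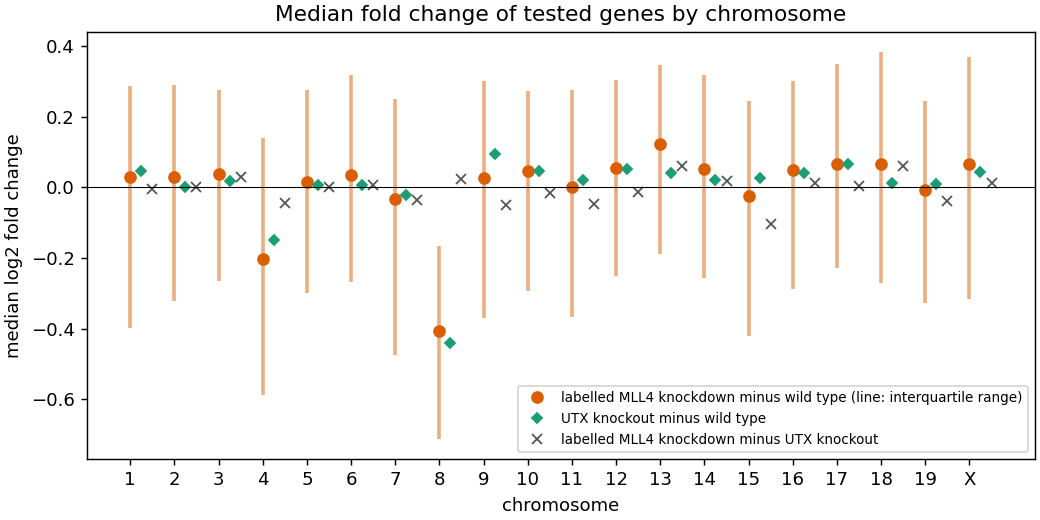
Median log2 fold change of the tested genes of each autosome and the X chromosome, for the labelled MLL4 knockdown minus wild type (circles, with the interquartile range of genes as a line), the UTX knockout minus wild type (diamonds) and their difference (crosses). Chromosomes 8 and 4 lie below 0 in both comparisons with wild type, at -0.41 and -0.20 for the labelled knockdown, and near 0 in the difference.

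The named genes were also compared directly with the UTX knockout, since the shared wild type libraries leave the 2 comparisons with wild type dependent. Between those groups 5417 genes (36.7%) differed. The genes were named for their change in the same labelled knockdown libraries, which favours a labelled knockdown value beyond that of the UTX knockout, so single values are given and no count. Sdc4 held 100.2 ± 24.5 CPM (SD, n = 3) in the UTX knockout, and the labelled knockdown differed from it by -3.05 (SE 0.12, adjusted p = 2.04e-07). For Liph and Inpp5d the difference was -3.53 (SE 0.14, adjusted p = 2.04e-07) and -3.14 (SE 0.14, adjusted p = 4.28e-07), and for Emp1 3.46 (SE 0.28, adjusted p = 1.61e-05). Otx2 was at 4.89 ± 1.69 CPM in the UTX knockout, between wild type and the labelled knockdown, a difference of -2.07 (SE 0.18, adjusted p = 2.23e-05). Tex13 had changed further in the UTX knockout, with a mean of 9.24 CPM against 4.68 CPM in the labelled knockdown. Oog4 was also lower in the UTX knockout, but both means were near 0, at 0.0144 CPM and 0.158 CPM (difference 2.95, SE 0.87). Scd2, Tfcp2l1 and Peg10 did not differ past the test. Krt8, at 12.6 ± 3.90 CPM in the UTX knockout, gave 0.10 (SE 0.53, adjusted p = 0.897), and Ctgf, at 14.6 ± 2.26 CPM, gave 1.70 (SE 0.13, adjusted p = 8.29e-06).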

How the data were processed

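RNA of 9 mouse embryonic stem cell libraries had been prepared with an Illumina TruSeq kit, per the labels' protocols. The authors deposited whole-number counts per gene for 33924 genes, with 18570746 to 23874816 counts per library; the aligner STAR 2.4 and the counter HTSeq 0.6.1 are listed by the submitters' processing notes beside mm9 and hg19, with no strand setting. The reference used for promoters was RefSeq on GRCm38.p6, matched by symbol.

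The 14772 genes passing filterByExpr were fitted with edgeR 4.0.16 (R 4.3.3), with TMM factors, all 9 libraries and the replicate number as a block. Same-numbered labelled knockdown and wild type libraries deviated together (correlations 0.416, 0.182 and 0.238), and the shared numbers come from the titles; the unmatched pairs of replicates 2 and 3 were also positive (0.132 and 0.154), so these are less clearly told apart. Replicates 1 and 3 were run in lane 2, replicate 2 in lane 1. The fit was tested on simulated counts of this design.

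Genes are named by these rules: regulators of the label; 12 rises and 12 falls of smallest p (over 2-fold, mean log2 CPM of at least 2, no overlap); 8 and 8 of largest CPM difference; up to 8 per direction off in one group and on in the other; and members of 45 lists. Members and lists were chosen with earlier results of these data known. Lists carry no test; DESeq2 1.42.0 was an alternative.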

Additional observations from a re-analysis of the deposited data

How the results depend on the processing

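Of 208 called genes named in the text, 180 stayed called in every alternative that gave them a value, and 0 of the 208 changed direction. Many of them were named for a small p or a large change in these same libraries, which favours such stability. Of all 5037 calls, single alternatives kept from 59.96% (without labelled knockdown replicate 2) to 98.8% (RLE size factors). At most 1 of all calls changed direction in any alternative. The calls lost in most alternatives were those of Wbp7 and Psmb9, in 8 of 16 each. Without the replicate block 3930 genes were called rather than 5037. With a fold change of more than 2 required as well, 1860 genes were called, 421 higher and 1439 lower. Leaving out 1 library gave 3108 to 4935 called genes and 1110 to 2150 rises, the lowest of each without labelled knockdown replicate 2.

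Kmt2d depended on the libraries used. Its log2 fold change was -0.49 with lane 2 alone, -0.45 with length trends removed, and -0.44 to 0.16 when each library was left out in turn. Other values, none of them called in the main analysis, changed sign as well. With lane 2 alone Ctgf was at 0.032 and Ptch1 at -0.020. When each library was left out Ctgf ran from -0.144 to 0.039, Ptch1 from -0.017 to 0.606 and Sall4 from -0.164 to 0.042. Cdx2, a gene of very low level, was not near 0 throughout and ran from -1.84 to 0.048. Without wild type replicate 1 it passed edgeR's test (adjusted p = 0.0106). Other named genes not called in the main analysis also passed without that library. They were Bmp4 at -1.60, Klf2 at -0.87, Axin2 at -0.81, Kdm6a at 0.64, Ptch1 at 0.61 and Fos at 0.52. Without wild type replicate 2, Pou5f1 at 0.44 and Nodal at 0.42 passed. The cause was not tested.

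Depth limits low genes most: the median standard error was 0.34 log2 units in the lowest quartile of expression and 0.12 in the highest. Each group has 3 libraries, and the design cannot separate the knockdown from a difference of clone or passage. No alternative scaling moved the median of all genes by more than 0.1 log2 units. Leaving out chromosomes 4, 8 and Y was chosen after seeing the data.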
